A study of Homo sapiens with 12 samples.

Results

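The aminoacyl-tRNA synthetases are described here in the human myeloid leukaemia line SKM1 after 18 h with APR-246, 5-azacytidine or both. The list holds 35 synthetase genes of 28125 named genes on the array, 19 whose enzymes work in the cytosol and 16 whose enzymes work in mitochondria. They were chosen by gene symbol, cytosolic where the symbol ends in 1 or is FARSA or FARSB and mitochondrial where it ends in 2, and all 35 had a row in the deposited table. The 4 groups of 3 arrays were SKM1 given APR-246 and 5-azacytidine together (APR-AZA), 5-azacytidine alone (AZA), APR-246 alone (APR) and no drug (NT). Each drug was used at its IC50, with no concentration given in the sources used here. All groups are the same line with no other genetic change stated, so they stand for this line alone. Separate cultures are not stated for the 3 arrays of a group, so p-values rest on a spread that may be technical only.

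A synthetase joins an amino acid to its tRNA, the step that supplies the ribosome with charged tRNAs. Human cells use a cytosolic set of these enzymes and a mitochondrial set, both encoded in the nucleus, and most amino acids have a separate gene for each. GARS1 and KARS1 each supply both compartments, EPRS1 carries the glutamyl and the prolyl activity in a single chain, and mitochondria make glutaminyl-tRNA without a synthetase of their own. When amino acids run short or other stresses act, the kinases of eIF2, GCN2 among them, raise translation of the transcription factor ATF4, and many cytosolic synthetase genes are known ATF4 targets. 5-Azacytidine (AZA) is a cytidine analogue that enters RNA and DNA, and the active product of APR-246 (APR) binds thiol groups.

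Values are log2 signals made with RMA by the authors, 1 per gene and array. All 12 arrays were alike in their medians (4.69 to 4.78), and arrays of a group correlated at 0.994 to 0.996 over the table. The synthetase genes were well measured: their mean signals lay between the percentiles 67.8 and 99.8 of all genes, with a median SD within groups of 0.07 on the log2 scale and a highest of 0.31. Of the leukocyte and myeloid markers, 7 of 8 were measured and lay at or above the percentile 74.6, MPO at 99.2, while the T-cell, B-cell and erythroid markers CD3D, CD3E, MS4A1 and HBB lay between 3.7 and 26.3. The epithelial markers EPCAM and KRT19 lay at the percentiles 93.2 and 53.9, and the fibroblast markers COL1A1 and COL1A2 at 68.4 and 52.8. In bulk RNA, fewer cells of a kind and less RNA per cell cannot be told apart.

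The first question was what AZA alone did to the 2 sets against untreated cells. Cytosolic synthetases were mostly higher and mitochondrial synthetases mostly lower. With AZA, 11 of 19 cytosolic genes rose and 3 fell, where 9.79% of all genes rose and 11.1% fell (limma, adjusted p under 0.05 over all genes). Of the 16 mitochondrial genes, 1 rose and 9 fell. The median log2 change was 0.49 over the cytosolic genes and -0.31 over the mitochondrial genes, against -0.004 over all genes. The AZA and NT arrays did not overlap for 17 of the cytosolic and 11 of the mitochondrial genes, against 32.1% of all genes.

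WARS1, which charges tryptophan, moved most. Its log2 signal was 10.53, 10.56 and 10.45 on the AZA arrays, against 7.64, 7.83 and 7.73 on the NT arrays. The AZA arrays all lay above the NT arrays, with a change of 2.78 ± 0.08 on the log2 scale (SE, n = 3 per group), 6.87-fold higher (limma adjusted p = 2.23e-10). CARS1, the cysteine enzyme, had 9.67, 9.68 and 9.64 with AZA, against 7.67, 7.77 and 7.75 in NT, a change of 1.93 ± 0.07 (adjusted p = 5.77e-10). SARS1, the serine enzyme, had 9.76, 9.84 and 9.79 with AZA, against 8.27, 8.28 and 8.20 in NT, a change of 1.54 ± 0.08 (adjusted p = 1.88e-08). The groups were clear of each other for both genes. MARS1, the methionine enzyme and a subunit of the multisynthetase complex, had 10.57, 10.83 and 10.86 with AZA, against 9.39, 9.37 and 9.19 in NT, a change of 1.44 ± 0.11 (adjusted p = 6.15e-07). AARS1, the alanine enzyme, had 11.56, 11.65 and 11.67 with AZA, against 10.48, 10.39 and 10.19 in NT, a change of 1.28 ± 0.10 (adjusted p = 6.44e-07). AZA replicate 1 was the lowest AZA array for MARS1 and AARS1, and still lay more than 1 log2 unit above the highest NT array.

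The other 6 that rose were GARS1 (glycine) at 1.08 ± 0.07, TARS1 (threonine) at 0.95 ± 0.07, YARS1 (tyrosine) at 0.69 ± 0.11, EPRS1 (glutamate and proline) at 0.59 ± 0.07, IARS1 (isoleucine) at 0.49 ± 0.07 and NARS1 (asparagine) at 0.27 ± 0.07 (log2 change, SE). The AZA arrays lay above the NT arrays for each of the 11. NARS1 was the weakest of them, 1.20-fold higher with an adjusted p of 0.0182, and its call was lost without AZA replicate 1 (adjusted p = 0.0624), without NT replicate 2 (0.0813) and with the compared groups fitted alone (0.0654), over a range of 0.000993 to 0.0813 in its alternatives.

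**Figure D1:**
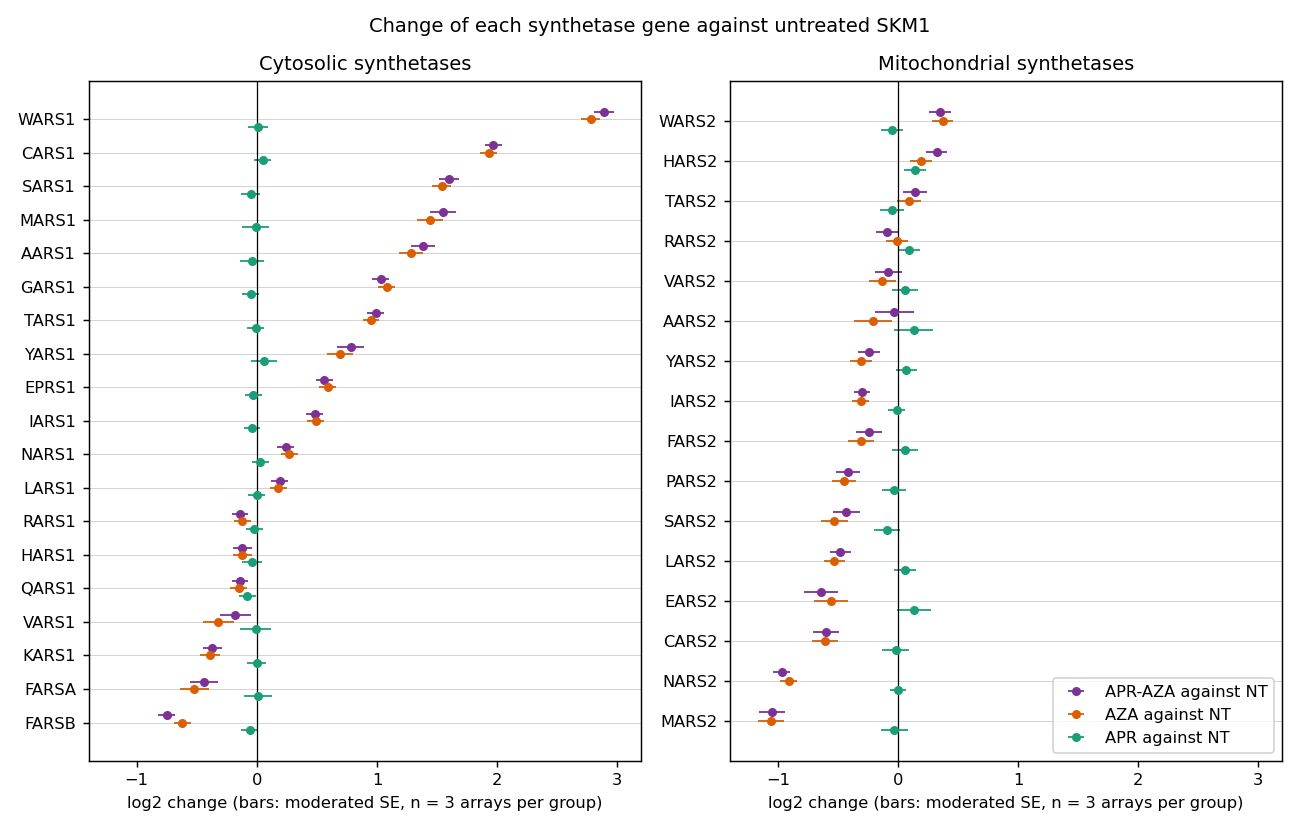
Log2 change of each synthetase gene against NT (horizontal axis) with APR-AZA, AZA and APR, cytosolic genes on the left and mitochondrial genes on the right, sorted by the AZA change; bars are moderated standard errors, n = 3 arrays per group. WARS1 stands at 2.89 with APR-AZA and 2.78 with AZA, MARS2 at -1.05 and -1.06, and the changes with APR alone lie between -0.09 and 0.14.

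The 3 cytosolic genes that fell with AZA were both phenylalanine subunits and the lysine enzyme. FARSB, the beta subunit of the cytosolic phenylalanine enzyme, had 10.64, 10.62 and 10.67 with AZA, against 11.27, 11.20 and 11.32 in NT, a change of -0.62 ± 0.07 (limma adjusted p = 3.15e-05). FARSA, the alpha subunit, had 9.92, 9.95 and 10.03 with AZA, against 10.73, 10.44 and 10.28 in NT, a change of -0.52 ± 0.12 (adjusted p = 0.00563). The FARSA arrays were clear of each other, with NT spread over a wider range than AZA. KARS1, the lysine enzyme of both compartments, had 10.02, 10.13 and 10.10 with AZA, against 10.55, 10.50 and 10.37 in NT, a change of -0.39 ± 0.08 (adjusted p = 0.00351). So the genes that serve both compartments differed in direction, GARS1 higher and KARS1 lower. The remaining 5 cytosolic genes were not called: LARS1 (leucine) at 0.18 ± 0.07, HARS1 (histidine) at -0.12 ± 0.08, RARS1 (arginine) at -0.12 ± 0.07, QARS1 (glutamine) at -0.15 ± 0.07 and VARS1 (valine) at -0.32 ± 0.13.

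The same 19 genes can be sorted by complex and by enzyme class. Of the 7 subunits of the multisynthetase complex on the list, a cytosolic assembly that holds several synthetases together, MARS1, EPRS1 and IARS1 rose and KARS1 fell, with a median log2 change of 0.18. Of the 12 cytosolic genes outside the complex 8 rose and 2 fell, with a median of 0.82, where 9.79% of all genes rose and 11.1% fell. Subunits of the complex thus differed in direction, and AIMP1, the 1 measured of 3 listed scaffold genes, stood at -0.16 and was not called with AZA alone. With APR-AZA against NT, AIMP1 was called lower, at -0.29 ± 0.09 (limma adjusted p = 0.0374). In APR-AZA against AZA it stood at -0.13 ± 0.09 and was not called. Synthetases have either of 2 unrelated catalytic folds, class I and class II. Of 9 cytosolic class I genes 5 rose and 0 fell, with 3 of these 9 below 0 and not called, and of 9 class II genes 5 rose and 3 fell. EPRS1 holds a domain of each class and was left out of that count. No difference between these subsets was tested.

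**Figure D2:**
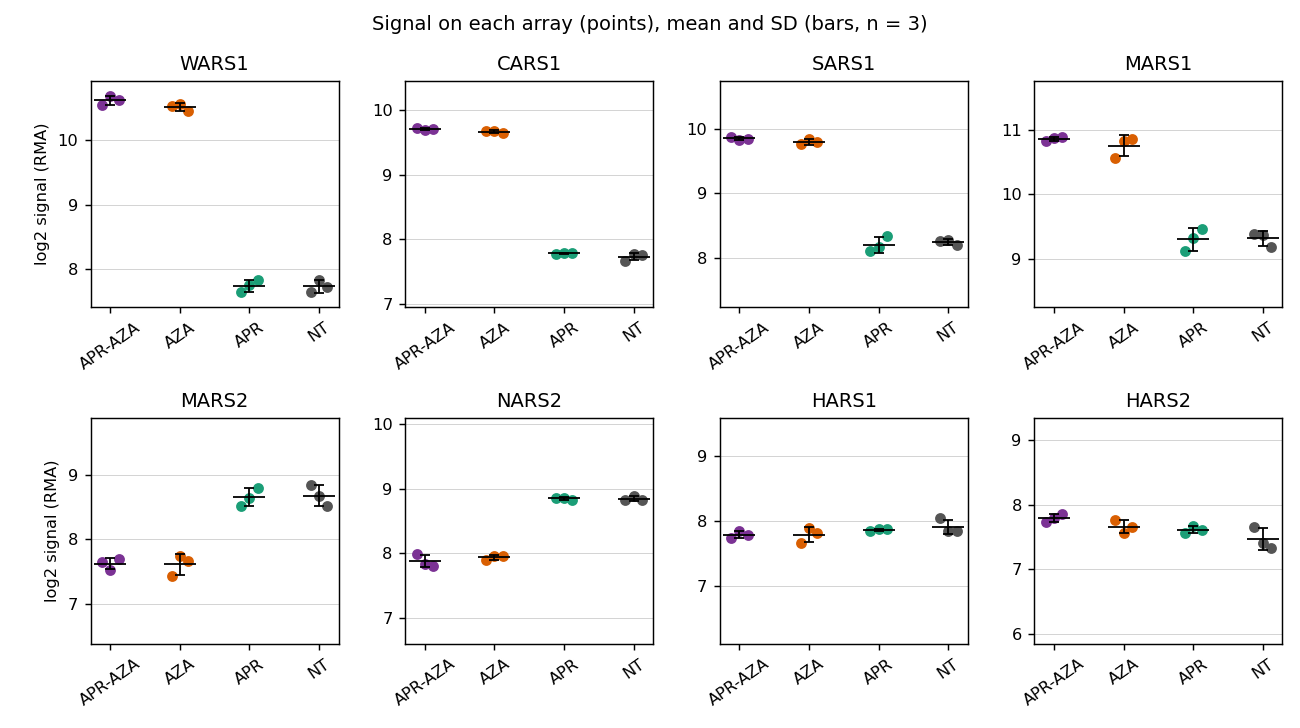
Log2 signal of 8 synthetase genes on each array by group, left to right APR-AZA, AZA, APR and NT; points are arrays, and the bars give the mean and SD (n = 3), on axes that all span the same log2 range. WARS1, CARS1, SARS1 and MARS1 are high on the 6 arrays with AZA, MARS2 and NARS2 are low on them, while HARS1 runs from 7.66 to 8.04 and HARS2 from 7.34 to 7.86 over all arrays.

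The promoters are shown because members moved together and ATF4 is known to bind, with C/EBP partners, a composite site whose core can be written TGATGNAA. RefSeq windows (GRCh38.p14) of 250 bases before to 50 after an annotated start were matched for 30 of the 35 genes, 9 of them with a pair of windows, and both strands were searched. Windows were not matched for LARS1, VARS1, YARS1, AARS2 and VARS2. The letters were found in 8 of these 30 genes, 7 of 16 cytosolic and 1 of 14 mitochondrial, against 4.46% of 27305 genes with a window. The 7 cytosolic genes were AARS1, CARS1, GARS1, IARS1, MARS1, NARS1 and TARS1, each of which rose with AZA, and the mitochondrial gene was YARS2, which fell. In the 6 of these other than GARS1 and YARS2 the letters read TGATGCAA, a form found in 1.08% of all genes and singled out after the matches were seen. The sites follow with 30 bases each on the gene's strand, 5′ to 3′, with the match in capitals (TTGCATCA is TGATGCAA read from the opposite strand).
AARS1, chr16:70289675-70289704, minus strand: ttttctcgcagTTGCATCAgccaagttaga
CARS1, chr11:3057407-3057436, minus strand: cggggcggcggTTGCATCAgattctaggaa
GARS1, chr7:30594834-30594863, plus strand: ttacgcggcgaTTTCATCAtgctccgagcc
IARS1, chr9:92293692-92293721, minus strand: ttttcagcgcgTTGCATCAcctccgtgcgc
MARS1, chr12:57488053-57488082, plus strand: gccggttccggTTGCATCAgcgagggattc
NARS1, chr18:57621804-57621833, minus strand: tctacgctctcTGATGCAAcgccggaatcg
TARS1, chr5:33440956-33440985, plus strand: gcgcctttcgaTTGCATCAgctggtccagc
YARS2, chr12:32756076-32756105, minus strand: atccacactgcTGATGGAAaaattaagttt

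The match lay close to the start in 6 of the 7 cytosolic genes. Counting the start as 0, its first base was at -33 in GARS1, -13 in IARS1, -4 in MARS1, -2 in CARS1, 2 in TARS1 and 14 in NARS1. It was at -187 in AARS1 and -197 in YARS2. In CARS1, GARS1 and TARS1 it was found in 1 window of the pair. Over all tested genes with a window, 99 of 808 with TGATGNAA rose with AZA (12.3%), and 2025 of 18758 without it (10.8%). For TGATGCAA, the form singled out after the matches were seen, it was 36 of 196 (18.4%) and 2088 of 19370 without it (10.8%). These are counts with no test, and they include the synthetases. WARS1 and SARS1, both strongly raised, and EPRS1 had no such letters in their windows.

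For AARS1 the whole stretch before the start places the match in context, with the match in capitals, and for WARS1, the gene that moved most, the stretch before the outer of its pair of starts is shown with CCGGAAG (an ETS-type site) and CCAAT in capitals on either strand.
AARS1, chr16:70289507-70289756, minus strand: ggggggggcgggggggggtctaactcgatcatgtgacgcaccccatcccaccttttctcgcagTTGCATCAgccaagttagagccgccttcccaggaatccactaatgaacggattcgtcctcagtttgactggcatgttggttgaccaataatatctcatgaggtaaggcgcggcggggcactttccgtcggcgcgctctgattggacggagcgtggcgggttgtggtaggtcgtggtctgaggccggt
WARS1, chr14:100376328-100376577, minus strand: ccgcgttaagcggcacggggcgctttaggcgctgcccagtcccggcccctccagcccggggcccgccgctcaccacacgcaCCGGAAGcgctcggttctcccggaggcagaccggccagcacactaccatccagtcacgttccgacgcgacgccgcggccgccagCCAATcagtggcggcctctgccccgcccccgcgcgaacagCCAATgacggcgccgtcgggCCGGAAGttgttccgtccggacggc
These motifs were chosen after values were seen. CCGGAAG was in 9 of 16 cytosolic and 7 of 14 mitochondrial genes, against 12.2% of all genes. CCAAT was in 7 and 9, against 39.7% of all genes. The full cyclic AMP response element TGACGTCA was in 0 of the 30, against 2.25% of all genes. Of the 520 tested genes that hold it 93 rose with AZA (17.9%), and 2031 of 19046 without it (10.7%). For CCGGAAG the shares that rose were 14.4% with it and 10.3% without it, and for CCAAT 11.3% and 10.5%. A match is a description of letters and not a bound site.

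In the mitochondrial set MARS2, the methionine enzyme, fell most with AZA. It had 7.43, 7.74 and 7.67 with AZA, against 8.84, 8.67 and 8.52 in NT, a change of -1.06 ± 0.11 on the log2 scale (SE, n = 3 per group), 2.09-fold lower (limma adjusted p = 1.21e-05). NARS2, the asparagine enzyme, had 7.89, 7.96 and 7.96 with AZA, against 8.82, 8.89 and 8.83 in NT, a change of -0.91 ± 0.07 (adjusted p = 1.18e-06). CARS2, the cysteine enzyme, had 7.85, 8.17 and 7.97 with AZA, against 8.75, 8.62 and 8.46 in NT, a change of -0.61 ± 0.11 (adjusted p = 0.00105). The AZA arrays were below the NT arrays for these 3 genes and for the other 6 that fell. Those were EARS2 (glutamate) at -0.56 ± 0.14, SARS2 (serine) at -0.53 ± 0.11, LARS2 (leucine) at -0.53 ± 0.09, PARS2 (proline) at -0.45 ± 0.10, IARS2 (isoleucine) at -0.31 ± 0.07 and YARS2 (tyrosine) at -0.31 ± 0.09. YARS2 had the weakest call (adjusted p = 0.0242), which was lost without AZA replicate 1 (0.0586) or 3 (0.0888) and without NT replicate 2 (0.0581) or 3 (0.0712), over a range of 0.0117 to 0.0888.

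WARS2, the mitochondrial tryptophan enzyme, rose, the 1 mitochondrial gene that did. It had 9.15, 9.32 and 9.18 with AZA, against 8.79, 8.78 and 8.97 in NT, a change of 0.37 ± 0.09, 1.29-fold higher (limma adjusted p = 0.00777). The other 6 were not called: HARS2 (histidine) at 0.19 ± 0.09, TARS2 (threonine) at 0.09 ± 0.10, RARS2 (arginine) at -0.01 ± 0.09, VARS2 (valine) at -0.13 ± 0.11, AARS2 (alanine) at -0.21 ± 0.16 and FARS2 (phenylalanine) at -0.31 ± 0.11. AARS2 had the widest error of the 35 genes. FARS2 lay below 0 like FARSA and FARSB, so that all 3 phenylalanine genes had negative values, FARS2 with an adjusted p of 0.0711.

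The E-box CACGTG, the letters that MYC and MAX bind, was searched after values were seen. It was in 1 of 16 cytosolic genes (IARS1) and in 3 of 14 mitochondrial genes (CARS2, EARS2 and MARS2), against 8.77% of all genes. Over all tested genes with a window, 12.5% with CACGTG rose with AZA and 10.7% without it. Every motif searched here thus had a higher share of risen genes among those that hold it, with no test. MARS2 is shown with the box in capitals, since it fell most and the box lies next to its start.
MARS2, chr2:197705119-197705368, plus strand: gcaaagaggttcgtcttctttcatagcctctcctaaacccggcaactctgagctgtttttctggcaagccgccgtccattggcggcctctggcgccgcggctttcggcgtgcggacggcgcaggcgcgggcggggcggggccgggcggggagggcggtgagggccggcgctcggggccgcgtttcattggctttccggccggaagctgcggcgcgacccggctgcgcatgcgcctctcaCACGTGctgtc

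For 13 amino acids the list holds a gene for each compartment, which allows the comparison within an amino acid. The change with AZA was greater in the cytosolic than in the mitochondrial gene in 10 of the 13 pairs, with a median difference of 1.0 and a range of -0.31 to 2.54 on the log2 scale. The widest differences were in CARS1 and CARS2 (2.54 ± 0.14, SE of the within-array difference, n = 3 per group), MARS1 and MARS2 (2.50 ± 0.05), WARS1 and WARS2 (2.41 ± 0.10) and SARS1 and SARS2 (2.07 ± 0.10). In methionine, cysteine, serine, asparagine, isoleucine and tyrosine the cytosolic gene rose and the mitochondrial gene fell. In tryptophan both rose. In alanine and threonine the cytosolic gene rose and the mitochondrial gene was not called, and in leucine LARS2 fell and LARS1 was not called. Histidine, arginine and valine were the 3 pairs with a negative difference, at -0.31 ± 0.13, -0.11 ± 0.09 and -0.19 ± 0.07, with neither gene called. The differences between paired genes are given as values and were not tested.

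**Figure D3:**
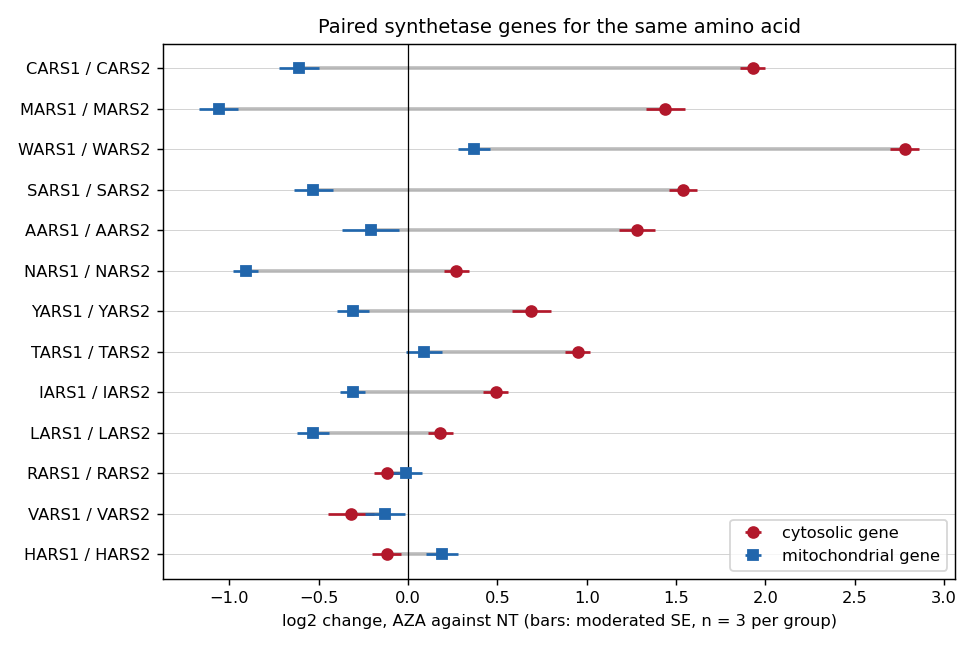
Log2 change with AZA against NT for the 13 amino acids with a cytosolic (red circles) and a mitochondrial gene (blue squares); bars are moderated standard errors, n = 3 arrays per group. The grey line between paired points is longest for cysteine, methionine and tryptophan, and at the bottom the histidine, valine and arginine genes lie close together.

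Histidine stands apart in its gene structure. HARS1 and HARS2 run in opposite directions from starts that RefSeq places 84 bases apart, so the stretch between them lies before both genes. It is shown on the HARS2 strand with CCGGAAG, on either strand, in capitals.
HARS1-HARS2, chr5:140691371-140691454, plus strand: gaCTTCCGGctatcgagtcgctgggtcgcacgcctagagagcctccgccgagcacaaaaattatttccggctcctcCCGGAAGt
HARS1 had 7.66, 7.89 and 7.82 with AZA, against 8.04, 7.85 and 7.84 in NT, and the groups overlapped. HARS2 had 7.77, 7.57 and 7.65 with AZA, against 7.66, 7.41 and 7.34 in NT, and the groups overlapped too. With APR-AZA, HARS2 had 7.73, 7.79 and 7.86, above all NT arrays, a change of 0.32 ± 0.09 (limma adjusted p = 0.0242), while HARS1 had 7.74, 7.84 and 7.79 and a change of -0.12 ± 0.08 (adjusted p = 0.395). The HARS2 call was lost without APR-AZA replicate 2 (adjusted p = 0.0641) or 3 (0.0903), without NT replicate 2 (0.0868) or 3 (0.104) and with the compared groups fitted alone (0.0586), over a range of 0.00453 to 0.104.

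The next question was what both drugs did together against untreated cells. APR-AZA against NT gave 11 cytosolic genes higher and 3 lower, and 2 mitochondrial genes higher and 8 lower, where 10.4% of all genes rose and 11.9% fell. The median log2 change was 0.48 over cytosolic and -0.27 over mitochondrial genes, against -0.003 over all genes. The APR-AZA and NT arrays did not overlap for 17 cytosolic and 13 mitochondrial genes, against 35% of all genes. This comparison shares the NT arrays with the comparison of AZA against NT, so the values are set side by side without a test of likeness. WARS1 had 10.55, 10.69 and 10.62 with APR-AZA, a change of 2.89 ± 0.08 on the log2 scale (SE, n = 3 per group), 7.41-fold higher (limma adjusted p = 1.46e-10). CARS1 stood at 1.97 ± 0.07, SARS1 at 1.60 ± 0.08, MARS1 at 1.55 ± 0.11 and AARS1 at 1.38 ± 0.10. Among those that fell, MARS2 stood at -1.05 ± 0.11 with 7.65, 7.53 and 7.70, NARS2 at -0.97 ± 0.07, FARSB at -0.75 ± 0.07 and EARS2 at -0.64 ± 0.14. YARS2, lower with AZA alone, stood at -0.24 ± 0.09 with both drugs and was not called (adjusted p = 0.069). NARS1 was called at 0.24 ± 0.07 (adjusted p = 0.0285), and the call was lost with the replicate number as a block (adjusted p = 0.0557) and under 7 of the other 12 alternatives, over a range of 0.00194 to 0.116. FARSA lost its call without NT replicate 1 (adjusted p = 0.0648, over a range of 0.00534 to 0.0648).

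**Figure D4:**
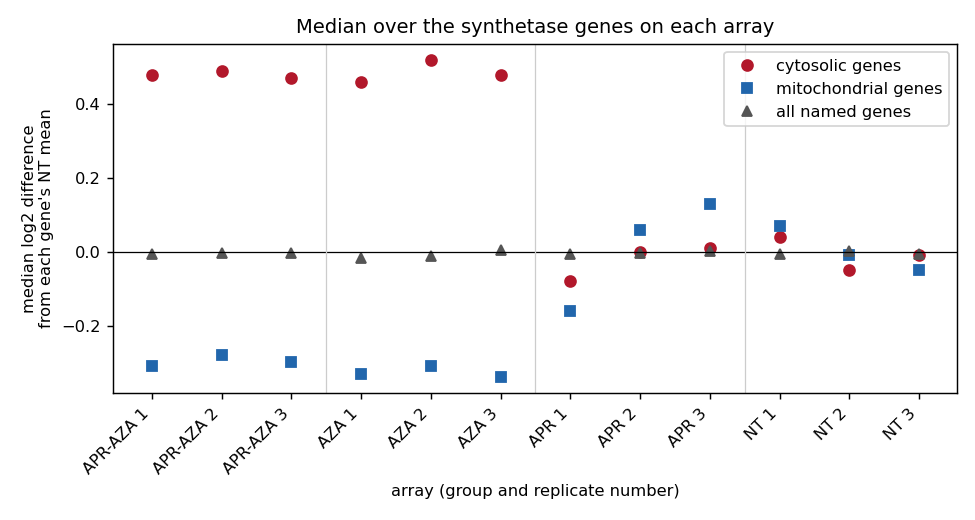
Median over the cytosolic genes (red circles), the mitochondrial genes (blue squares) and all genes (grey triangles) of the log2 difference from each gene's NT mean, for each array. The 6 arrays with AZA lie between 0.46 and 0.52 for the cytosolic and between -0.34 and -0.28 for the mitochondrial genes; the APR and NT arrays lie between -0.08 and 0.04 and between -0.16 and 0.13.

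APR alone left no synthetase called. Of the 35 genes 0 were called, and 0 reached an unadjusted p under 0.05, where limma called 0.00356% of all genes and 3.89% reached that unadjusted p. The log2 changes lay between -0.09 and 0.14, and the APR and NT arrays overlapped for all 35 genes, against groups that did not overlap in 7.48% of all genes. WARS1 had 7.64, 7.76 and 7.83 with APR, against 7.64, 7.83 and 7.73 in NT, a change of 0.01 ± 0.08 with a 95% interval of -0.17 to 0.19. The change of HARS2 was 0.14 ± 0.09 (interval -0.06 to 0.35), and that of SARS2 was -0.09 ± 0.11 (interval -0.32 to 0.14). The intervals bound the change of these genes and do not show that it was 0.

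Adding APR on top of AZA was then set against AZA. No synthetase was called in APR-AZA against AZA, where limma called 0% of all genes, and 0 of 35 had an unadjusted p under 0.05, against 4.69% of all genes. The log2 changes lay between -0.13 and 0.18, with 24 of 35 above 0 and a median of 0.04. Over all genes 13794 of 28125 lay above 0, with a median of -0.003. AZA replicate 1 was the lowest AZA array for 23 of the 35 synthetases, against 36.6% of all genes. Its part in the count above 0 was not tested. The APR-AZA and AZA arrays did not overlap for 5 genes, a share near the 11.6% over all genes. These were AARS1, CARS1, FARSA and YARS1, with APR-AZA above AZA, and FARSB, with APR-AZA below. WARS1 stood at 0.11 ± 0.08 (95% interval -0.07 to 0.29) and FARSB at -0.13 ± 0.07 (interval -0.29 to 0.03). Non-additivity, how far the joint change exceeded the summed single-drug changes, was also called for 0 synthetases and for 0% of all genes, with 0 of 35 at an unadjusted p under 0.05 against 3.52% of all genes, and lay between -0.21 (EARS2) and 0.19 (SARS2). The counts of synthetases called stayed at 0 in both comparisons under every alternative that was run.

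AZA added on top of APR was set against APR, a comparison of group means without the NT mean. Its errors still come from the fit over all 12 arrays. It also shares the APR-AZA arrays with the comparison of APR-AZA against NT, so the values are not independent of that comparison. In APR-AZA against APR 10 cytosolic genes rose and 3 fell, and 1 mitochondrial gene rose and 9 fell, where 9.45% of all genes rose and 11.2% fell. The median log2 change was 0.52 over cytosolic and -0.31 over mitochondrial genes, against 0.001 over all genes. The groups did not overlap for 17 cytosolic and 12 mitochondrial genes, against 34.3% of all genes. WARS1 had 10.55, 10.69 and 10.62 with APR-AZA, against 7.64, 7.76 and 7.83 with APR, a change of 2.88 ± 0.08 (SE, n = 3 per group, limma adjusted p = 2.00e-10). MARS2 had 7.65, 7.53 and 7.70 with APR-AZA, against 8.52, 8.64 and 8.80 with APR, a change of -1.02 ± 0.11 (adjusted p = 1.73e-05). NARS1 was not called here, at 0.22 ± 0.07 (adjusted p = 0.0554), and HARS2 stood at 0.18 ± 0.09 (adjusted p = 0.241). SARS2 was the weakest call, at -0.34 ± 0.11 (adjusted p = 0.0334), and was lost with the replicate number as a block (0.0586) and under 6 of the other 12 alternatives, over a range of 0.0217 to 0.143. Calls were also lost for YARS2 under 5 alternatives (adjusted p 0.00546 to 0.0896 over all 13), for PARS2 under 3 (0.00579 to 0.0773), for IARS2 without APR-AZA replicate 1 (0.00159 to 0.0549, the highest being that setting) and for FARSA without APR replicate 3 (0.00507 to 0.0688, likewise). Replicate 1 was the lowest of the APR arrays for 26 of the 35 synthetases, against 34.9% of all genes; without that array 11 synthetases were called higher and 13 lower in this comparison.

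Other genes of tRNA charging and translation were read from lists set out beside the synthetases. A list labelled GCN2-ATF4 arm holds the genes of GCN2 and its partner, ATF4 and other stress-response genes. Of its 10 genes 8 rose with AZA and 0 fell, where 9.79% of all genes rose and 11.1% fell. The median log2 change was 1.23. The label is only a name, and which kinase of eIF2 had a part was not tested. ATF4 itself stood at 0.98 ± 0.11, ASNS, asparagine synthetase, at 2.99 ± 0.07, the pseudokinase TRIB3 at 2.23 ± 0.14 and the transcription factor ATF5 at 2.04 ± 0.16. The 2 genes of this list not called with AZA alone were EIF2AK4, which encodes the kinase GCN2, and its partner GCN1. EIF2AK4 stood at -0.19 ± 0.07 (limma adjusted p = 0.0743) and GCN1 at -0.22 ± 0.08 (adjusted p = 0.0919). EIF2AK4 was called lower with APR-AZA against NT, at -0.24 ± 0.07 (limma adjusted p = 0.0235). It was also called lower with APR-AZA against APR, at -0.26 ± 0.07 (adjusted p = 0.0177). In APR-AZA against AZA it stood at -0.05 ± 0.07 and was not called. XPOT, which exports tRNA from the nucleus, rose, at 0.47 ± 0.08, while 3 of the 6 genes of tRNA export and end maturation fell, among them ELAC2, which trims tRNA 3′ ends, at -0.76 ± 0.10.

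Mitochondrial translation genes outside the synthetases lay on the same side as the mitochondrial synthetases. All 8 measured mitochondrial translation factors had negative values with AZA, as did 14300 of all 28125 genes, and 4 were called lower, against 11.1% of all genes. Among the 4 were the elongation factors TSFM at -0.57 ± 0.11, TUFM at -0.47 ± 0.10 and GFM1 at -0.43 ± 0.07. Of the 4 genes that make mitochondrial glutaminyl-tRNA or formyl-methionyl-tRNA, 3 fell: MTFMT, the formyltransferase, at -0.68 ± 0.09, and the amidotransferase subunits GATB at -0.57 ± 0.10 and QRSL1 at -0.43 ± 0.09. DTD1 and DTD2, which clear mischarged tRNAs, fell too, at -0.58 ± 0.08 and -0.95 ± 0.17. Of 4 measured cytosolic elongation factors EEF2, which moves the ribosome along, rose at 0.27 ± 0.07 and EEF1B2, an exchange factor subunit, fell at -0.53 ± 0.15.

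WARS1 is also known as a gene that interferon-gamma induces, so genes of that response were read beside it. Of 7 measured, IRF1 rose with AZA, at 1.98 ± 0.09, and CIITA fell, at -0.77 ± 0.10. GBP1, GBP2, GBP5, IDO1 and CXCL10 were not called, with values between -0.09 and 0.26. The part of either response in the WARS1 change was not tested.

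**Figure D5:**
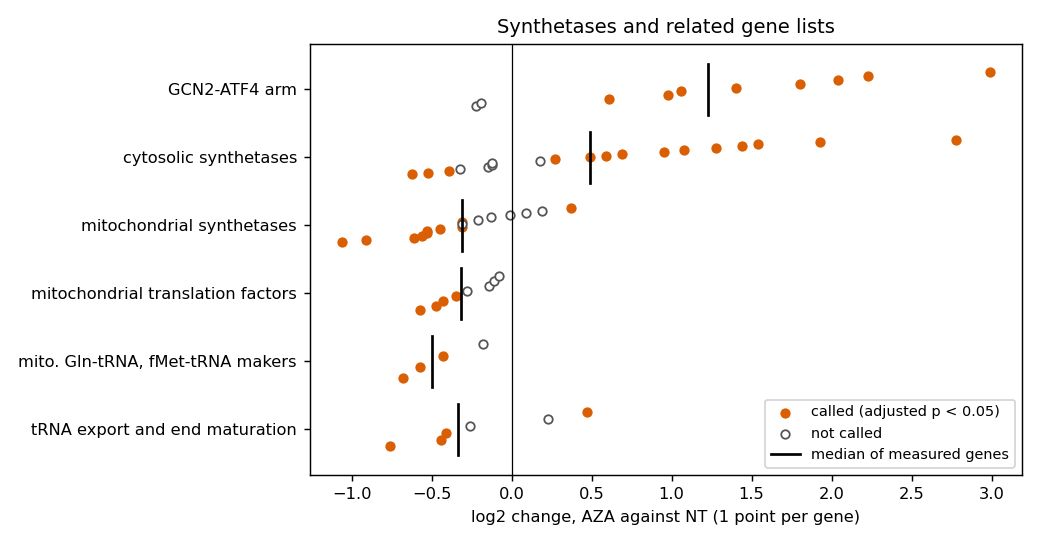
Log2 change with AZA against NT for each gene (1 point) of the synthetase sets and of 4 related lists; filled points were called, open points were not, and the black line is the median of the measured genes. The medians are 1.23 for the GCN2-ATF4 arm, 0.49 for cytosolic and -0.31 for mitochondrial synthetases and -0.31 for the mitochondrial translation factors.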

How the data were processed

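The deposited table holds log2 signals made by the authors with RMA, which is named with Partek in the submitters' processing notes and sets arrays to a common distribution, so a shift of most genes one way would not remain. The chip definition is not given in the sources used here. Each array took 250 ng of RNA, per the labels' protocols. Of 29413 rows, 28129 carry a gene symbol in the platform annotation. For 4 symbols on several rows the brightest row was kept, leaving 28125 genes, with no filter on signal.

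All genes were fitted by lmFit and eBayes of limma 3.58.1 under R 4.3.3 (a mean for each of 4 groups, 12 arrays, 8 residual degrees of freedom). P-values were adjusted by Benjamini-Hochberg over the whole table. Called, risen or fallen means an adjusted p under 0.05. The fit was tested on simulated data. Arrays have no counting depth, and their number limits precision. Replicate numbers are only part of the titles, so the main fit did not pair the arrays by them. The members, gene lists and tests were chosen with earlier results of these data known, so they get no test of their own. Among called members, values on every array were given for the cytosolic genes with the 5 greatest increases and 3 greatest decreases. For the mitochondrial genes they were given for up to 3 each way. HARS1 and HARS2 were added as a fixed pair. AARS2 and VARS1, called in no comparison of the main fit, were shown for APR and NT because of the order of their arrays. Of each related list up to 3 called genes were named by size, with ATF4 and XPOT. Some genes of these lists not called with AZA were named as well. Alternatives were leaving out each array, a replicate block, the compared groups alone, another variance model or none, median centring, repeated quantile normalization, and dropping the dimmest 30% of genes. Promoter windows came from RefSeq (GRCh38.p14).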

Additional observations from a re-analysis of the deposited data

How the results depend on the processing

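With AZA against NT, 12 were called higher (11 to 13 over the alternatives) and 12 lower (11 to 13). With APR-AZA against NT it was 13 higher (11 to 14) and 11 lower (10 to 12), and with APR-AZA against APR 11 higher (11 to 13) and 12 lower (8 to 13). The 8 came from leaving out APR replicate 3, a setting in which 5275 of all genes were called. Higher and lower together, 5878 of all 28125 genes were called with AZA against NT (5086 to 6098 over the alternatives). It was 6279 with APR-AZA against NT (5317 to 6512) and 5813 with APR-AZA against APR (4921 to 6085). In APR against NT, APR-AZA against AZA and the non-additivity comparison the counts of synthetases called were 0 under each alternative. Over all genes, 1 was called in APR against NT in the main fit. Of 24 members called with AZA, 22 kept their calls under all 13 alternatives, NARS1 and YARS2 being the exceptions. Of 24 called with APR-AZA against NT, 21 did, with FARSA, NARS1 and HARS2 the exceptions. Of 23 called with APR-AZA against APR, 18 did, with FARSA, IARS2, PARS2, SARS2 and YARS2 the exceptions. Some members not called in the main fit gained calls. With AZA these were LARS1 and FARS2 (under 2 alternatives each) and RARS1, VARS1 and HARS2 (1 each). With APR-AZA against NT they were LARS1 (3), RARS1 (2) and YARS2 (1). With APR-AZA against APR they were NARS1 (4), LARS1 (3), FARS2 (3) and RARS1 (1). With the replicate number as a block, 12 were higher and 12 lower with AZA, 12 and 11 with APR-AZA against NT, and 11 and 11 with APR-AZA against APR. Same-numbered arrays of different groups did not deviate together (correlations of -0.253 to 0.142, with 1 of 12 arrays closest to its own number). These correlations cannot show whether such arrays shared a culture or a batch. No call changed sign, and the causes of the lost and gained calls were not tested.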

Other observations

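Single arrays stood low or high for many synthetases at once. Replicate 1 was the lowest APR array for 26 of the 35 genes, 13 of the 16 mitochondrial ones among them, against 34.9% of all genes, and replicate 3 was the highest APR array for 23, against 37.6% of all genes. Replicate 1 was the lowest AZA array for 23 of the 35, against 36.6% of all genes. In NT, replicate 1 was the highest for 19 and replicate 3 the lowest for 18, against 33.0% and 34.4% of all genes. In APR-AZA no array was the lowest for more than 13 or the highest for more than 14. AARS2 and VARS1 followed this order. AARS2 had 6.15, 6.50 and 6.77 in APR, against 6.60, 6.36 and 6.08 in NT, and VARS1 had 8.50, 8.81 and 8.89 in APR, against 8.92, 8.80 and 8.51 in NT. These spreads within a group are wider than the changes of either gene with APR, at 0.13 and -0.01 on the log2 scale. VARS1 was called lower with AZA when NT replicate 3 was left out (limma adjusted p = 0.0394, against a range of 0.0394 to 0.39 over its alternatives).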
